A study of Mus musculus with 9 samples.

Results

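The transcriptome of wild-type (WT) caudal epiblast-like cells (CEpiLCs) on day 3 of differentiation is described here from the 3 WT libraries of a series of 9. CEpiLCs are mouse embryonic stem cells (ESCs) brought in culture to a state that resembles the posterior epiblast of the embryo. The 3 libraries were chosen by their labels, and levels are the deposited TPM values (transcripts per a fixed total of transcripts), a unit that divides reads by transcript length and so allows genes to be compared within a library. Within these libraries, 477 of the 24736 genes in the table were read, drawn from 47 lists of transcription factors, cell type markers, signalling ligands, receptors and response genes.

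WT cells were the HM1 TetON ESC line, and the 3 libraries are labelled as biological replicates of that line. Before differentiation the ESCs were grown on feeder fibroblasts with serum and LIF, and the feeders were removed by letting them attach to plastic. Cells were then cultured in N2B27 medium with bFGF at 10 ng per ml and LGK974 at 5 uM, an inhibitor of the enzyme Porcupine that stops cells from secreting WNT proteins. CHIR99021, which switches on WNT signalling inside the cell by inhibiting the kinase GSK3, was present for the last day, and RNA was taken at 72 h. The remaining libraries came from cells given the same culture, 3 from a line mutant in the genes Cdx1, Cdx2 and Cdx4 (CdxKO) and 3 from a line mutant in T, whose other name is Bra (T/BraKO). The labels name no second line of either mutant genotype.

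The caudal epiblast lies beside and behind the primitive streak and holds the progenitors that elongate the body axis, including cells that can become either spinal cord or paraxial mesoderm. T, a T-box factor of the streak and early mesoderm, and Sox2, a SoxB1 factor of pluripotent and neural cells, are present together in these progenitors. WNT and FGF signals maintain them and turn on the Cdx genes, which in turn activate posterior Hox genes.

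Total expected counts were 27189468, 30813836 and 32742296 in WT replicates 1, 2 and 3, so that a count of 0 allows up to 0.0916 to 0.110 CPM (counts scaled to a fixed library total, for a floor of 3 counts, which covers counting error only). The unprocessed ribosomal transcript Rn45s took 1.69%, 0.81% and 0.58% of these counts. Counts of every pair of libraries differed by more than sampling noise. In what follows a gene is called detected where all 3 WT libraries held 1 TPM or more, and not detected where all 3 were under 1 TPM. By this rule 267 of the 477 genes were detected, 169 were not and 41 lay between, against 12436, 11420 and 880 of all genes in the table. Of the listed genes, 131 were at 10 TPM or more and 17 at 100 TPM or more in every WT library. Because RNA came from whole cultures, fewer cells expressing a gene and less RNA per cell cannot be told apart.

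All 5 genes that mark this cell type were detected. T, on chromosome 17 at 8434423 to 8442496 of GRCm38 (plus strand), was read at 386, 396 and 510.2 TPM in WT replicates 1, 2 and 3. Cdx2, a caudal homeobox factor on chromosome 5 at 147300805 to 147307270 (minus strand), was read at 206, 92 and 125 TPM. Sox2, on chromosome 3 at 34650405 to 34652461 (plus strand), was read at 19.4, 13.9 and 27.6 TPM. These values put T far above Sox2 in each library, with a ratio of 22.3 ± 5.37 (SD, n = 3), and Cdx2 above Sox2 with a ratio of 7.26 ± 3.11. The WNT ligand Wnt3a, on chromosome 11 at 59248033 to 59290752 (minus strand), was read at 22.4, 18.3 and 15.1 TPM. The FGF ligand Fgf8, on chromosome 19 at 45736798 to 45742915 (minus strand), was read at 60.6, 45.4 and 46.5 TPM. Cdx2 had the widest spread of the 5, with replicate 1 highest, while Wnt3a and Fgf8 stayed within 1.49 and 1.33 times their lowest library.

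Of 11 caudal epiblast factors, 10 were detected. T stood highest, and Nkx1-2, a homeobox gene of the caudal lateral epiblast, came next with 301, 230.0 and 289 TPM. Sp5, a zinc-finger gene turned on by WNT signalling, was read at 102, 114 and 108 TPM and varied by less than 1.2 times between libraries. In the order of means the libraries of T lay wholly above those of Nkx1-2, those of Nkx1-2 above those of Cdx2, and those of Sp5 above those of the next gene, Sall1 (mean 26.9 ± 5.76 TPM, SD over 3 libraries here and below). Sp8, Cdx1, Sall3 and Evx1 followed at 24.3 ± 4.88, 22.3 ± 3.92, 22.1 ± 2.59 and 15.8 ± 8.03 TPM, and the ranges of neighbours among them overlapped. Cdx1 was read at 18.5, 26.4 and 21.9 TPM, the steadiest of the 3 Cdx genes, whereas Cdx4 was lowest at 7.4, 2.78 and 5.98 TPM. Cdx2 exceeded Cdx1 in every library, with a ratio that ran from 3.49 in replicate 2 to 11.1 in replicate 1. Evx2, the neighbour of the Hoxd cluster, was at 0 in every WT library.

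The promoters of T and Sp5, WNT targets whose WT levels exceeded 100 TPM, are shown because each held a match to the letters below. Other genes at that level are not shown. Each promoter is the 250 bases before the transcript start in RefSeq (GRCm38.p6), read in the direction of the gene. Capitals mark a match to CTTTGAA or CTTTGAT, letters that TCF and LEF proteins are known to bind, on either strand.
T, chr17:8434173-8434422, plus strand: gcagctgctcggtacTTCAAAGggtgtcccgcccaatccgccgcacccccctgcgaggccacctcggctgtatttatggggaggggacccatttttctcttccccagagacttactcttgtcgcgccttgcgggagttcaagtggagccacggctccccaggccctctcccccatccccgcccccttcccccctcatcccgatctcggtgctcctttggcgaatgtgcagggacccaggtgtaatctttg
Sp5, chr2:70474673-70474922, plus strand: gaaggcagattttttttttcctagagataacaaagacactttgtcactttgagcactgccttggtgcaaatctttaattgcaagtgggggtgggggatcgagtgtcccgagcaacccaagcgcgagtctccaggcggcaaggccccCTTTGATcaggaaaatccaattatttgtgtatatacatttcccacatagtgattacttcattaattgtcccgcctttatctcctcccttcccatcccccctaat
The match begins 235 bases before the start of T, where it is on the opposite strand, and 104 bases before the start of Sp5. Of the 26 genes in the caudal epiblast and WNT effector lists, 20 had a promoter entry, and 3 of these held a match, the third being the WNT antagonist Dkk1. Among all 27025 promoters searched, 7.67% held a match. A match of letters is a description and was not set against binding data here.

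**Figure D1:**
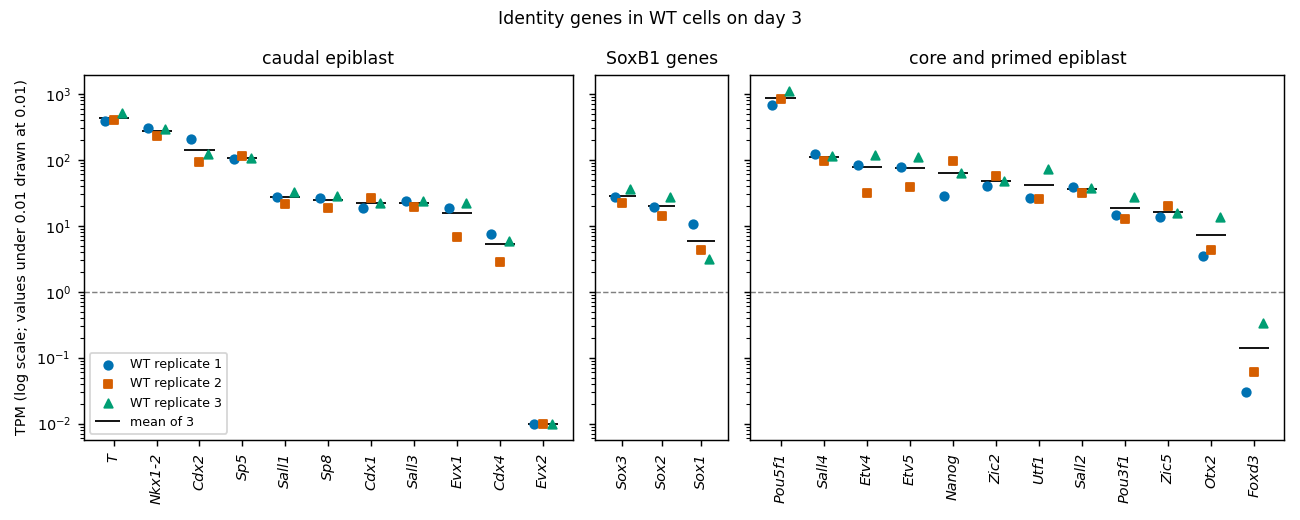
TPM (log axis) of 11 caudal epiblast, 3 SoxB1 and 12 epiblast genes in the 3 WT libraries, with 1 symbol for each library, a black bar at the mean and a dashed line at 1 TPM. T and Pou5f1 lead their lists, all 3 SoxB1 genes lie above 1 TPM, and Evx2 and Foxd3 lie below it in every library.

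The SoxB1 genes were all detected, well below T. Sox3 was read at 27.7, 21.8 and 35.8 TPM and was above Sox2 in each library by 1.43 ± 0.133 times, although the ranges of the genes overlapped. Sox1, which marks committed neural cells, was read at 10.6, 4.24 and 3.14 TPM, below Sox2 in each library.

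Genes of the pluripotent epiblast were abundant. Pou5f1, the OCT4 gene, had the highest mean of all 477 listed genes, with 690.2, 848 and 1101 TPM in WT replicates 1, 2 and 3. Nanog, which belongs to both naive and posterior epiblast cells, was read at 28.5, 95.9 and 62.5 TPM, highest in replicate 2. Sall4 (111 ± 13.2 TPM) varied little. The ETS factors Etv4 and Etv5, known targets of FGF signalling, had 84.9, 31.6 and 118 TPM and 76.9, 38.4 and 109 TPM and were lowest in replicate 2. Utf1, Sall2, Zic2, Zic5 and Pou3f1 had means from 16.3 to 47.8 TPM. The anterior epiblast factor Otx2 was read at 3.5, 4.31 and 13.6 TPM, high in replicate 3 alone, and Foxd3 was not detected.

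Naive pluripotency factors were lower, with a median of mean levels of 2.96 TPM against 47.8 TPM for the epiblast list. Klf5 was an exception at 34.6, 27.6 and 39.1 TPM, and Zfp42, the REX1 gene, was read at 9.02, 19.6 and 14.8 TPM. Dppa3, Tfcp2l1, Klf2, Esrrb and Klf4 were detected with means of 7.38, 6.16, 5.9, 3.36 and 2.57 TPM. Prdm14, Nr0b1, Tcl1 and Tbx3 were among the 5 genes of the list with means under 1 TPM. Of the 7 genes with a mean of at least 1 TPM, 4 were highest in replicate 2, 2 in replicate 3 and 1 in replicate 1, and Klf5 was lowest in replicate 2.

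Of 8 early streak factors, 5 were detected, with means that ranged widely. Foxh1, the DNA-binding partner of the SMADs that carry Nodal signals, was steady at 101, 104 and 103 TPM. Mixl1, a homeobox gene of mesendoderm, was read at 12.2, 7.09 and 23.9 TPM and Eomes, a T-box gene of the early streak, at 4.19, 3.21 and 9.75 TPM. Both were highest in replicate 3, as were Lhx1 (mean 3.66 TPM) and Otx2. Gsc, a gene of the anterior streak, had 1.0, 0.93 and 3.93 TPM, and Mesp1, which marks the first cardiac mesoderm, stayed under 1 TPM on average with 1.73, 0.27 and 0.76 TPM.

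Of 15 paraxial mesoderm factors, 5 were detected. Msgn1, a bHLH factor of presomitic mesoderm, was read at 31.1, 18.3 and 15.7 TPM. Tbx6, which directs cells to paraxial mesoderm, was read at 11.9, 6.78 and 4.53 TPM. The segmentation clock gene Hes7 was the most uneven of the list, with 26, 4.3 and 21.4 TPM. Msgn1 and Tbx6 were highest in replicate 1, and Hes7 was low in replicate 2 alone. Tcf15 (4.7 ± 1.3 TPM) and Foxc1 (3.19 ± 1.91 TPM) were also detected. The other 10 of 15 genes, which include the somite factors Meox1, Meox2, Pax1, Pax3, Uncx, Tbx18, Ripply1 and Ripply2, were not detected. T exceeded Tbx6 by between 32.5 and 113 times in the 3 libraries.

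Across 14 lists that mark other lineages, 44 of 130 genes were detected, 74 were not and 12 lay between. The share detected was 33.85%, against 50.27% of all genes in the table. In all 3 libraries 11 of the 130 genes were at 10 TPM or more. Factors that define anterior neural tissue were among the lowest. In the anterior brain list Gbx2, which is also expressed in the posterior embryo at gastrulation, was read at 145, 122 and 166 TPM, and the other 10 genes, Six3, Rax, Lhx2, En1 and En2 among them, were not detected. In the neural progenitor list 10 of 14 genes were not detected, and the eye and spinal cord factor Pax6 had 0.16, 0.02 and 0.11 TPM. Irx3, an early neural gene also found in caudal epiblast, and Sox1 were the detected pair, at 7.3 ± 3.34 and 5.98 ± 4.0 TPM, and Hes5 averaged 1.8 TPM with libraries on either side of 1 TPM.

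Of 10 genes listed as neuronal, 7 were detected, some of them known to be broadly expressed. Tubb3 was read at 39.6, 30.7 and 46.1 TPM and Map2 at 19.6, 20.1 and 17.5 TPM, both cytoskeletal genes. Snap25, Neurod1, Elavl3, Elavl4 and Isl1 had means between 1.44 and 6.04 TPM. Dcx, which marks migrating neurons, and Neurod4 were not detected. Of the neural crest genes Ets1 (13.2 ± 4.84 TPM), Sox9 (4.61 ± 0.96 TPM) and Snai2 (2.75 ± 0.30 TPM) were detected, and the 6 others were not, with Sox10 at 0.30, 0.41 and 0.43 TPM and Tfap2b at 0 in every library.

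Mesoderm of lateral, intermediate and cardiac type was low. Twist1, which also marks epithelial-to-mesenchymal change, led with 9.96, 4.83 and 13.3 TPM, and Hand1, a gene of lateral plate and extraembryonic mesoderm, had 1.21, 1.83 and 1.05 TPM. Isl1, a gene of cardiac progenitors, had 1.6, 1.28 and 1.43 TPM. Of 16 genes 10 were not detected, including Nkx2-5, Tbx5, Tbx20, Hand2, Osr1, Pax2 and Pax8, and Gata4, Gata6 and Prrx1 averaged under 1 TPM.

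Blood and endothelial factors were higher. Etv2, a factor that starts the endothelial and blood programme, was read at 34.2, 34.9 and 46.1 TPM, and its companion Lmo2 at 44.8, 26.1 and 49.7 TPM. Tal1, which acts with Lmo2 in blood progenitors, was read at 9.63, 2.8 and 5.92 TPM, lowest in replicate 2. Gata2 (3.18 ± 1.83 TPM) and Sox18 (2.2 ± 1.19 TPM) were also detected. Fli1 (4.01, 0.55 and 1.25 TPM) and Runx1 (1.54, 0.97 and 0.99 TPM) lay on both sides of 1 TPM, and Spi1, Gata1, Klf1 and Erg averaged under 1 TPM. Etv2 and Lmo2 had overlapping ranges.

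Endoderm and node lists overlap in Foxa2, a forkhead factor of both tissues, which was read at 4.41, 7.57 and 11.6 TPM. Hhex, a gene of anterior endoderm, had 8.39, 4.91 and 8.5 TPM and Foxa3 averaged 1.89 TPM. Sox17, a defining endoderm factor, was not detected at 0.51, 0.24 and 0.38 TPM, nor were Pdx1, Hnf4a, Onecut1 or Nkx2-1, the last at 0 in every library. Of the node genes, Rfx3 (15.2 ± 2.83 TPM), Foxj1 (2.23 ± 1.29 TPM) and Chrd (4.81 ± 1.63 TPM) were detected and Noto and Shh were not.

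Extraembryonic, germ cell, epidermal and muscle lists were read for their defining genes. The trophoblast genes Tpbpa and Prl3d1 were at 0 and Elf5, Gcm1 and Gata3 were not detected, while Ascl2 averaged 1.76 TPM. In the primitive endoderm list Dab2 (6.73 ± 1.93 TPM) and Pdgfra (2.72 ± 1.55 TPM) were detected, and the serum protein genes Afp and Ttr were not. In the germ cell list Dppa3, Tfap2c (5.88 ± 0.65 TPM) and Ddx4 (4.32 ± 1.05 TPM) were detected, and Nanos3, Dazl, Prdm1 and Prdm14 were not. Krt8 and Krt18, keratins of simple epithelia, reached 257, 277 and 137 TPM and 190.0, 242 and 108 TPM and were lowest in replicate 3. The epidermal genes Trp63, Krt5 and Krt14 were not detected, and Grhl3 and Dlx3 averaged 4.75 and 1.2 TPM. Actc1, an actin of striated muscle, was read at 24.1, 75.6 and 21 TPM and Myh6 averaged 5.04 TPM, but Myod1 and Myf5 were not detected and Myog, Myf6 and Tnnt2 were at 0 in each library.

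Transcripts listed for feeder fibroblasts were present. Col1a1, a fibrillar collagen, was read at 14.3, 18.5 and 7.29 TPM, Col1a2 at 15.5, 14.2 and 6.19 TPM, Thy1 at 20.8, 22.1 and 17.1 TPM and the smooth muscle actin gene Acta2 at 27.1, 54.5 and 16.8 TPM. Fbn1 (5.07 ± 1.12 TPM) and Col3a1 (2.89 ± 1.64 TPM) were also detected, which made 6 of 10 genes, Dcn (1.19 ± 0.57 TPM) and Postn lay between, and Lum and S100a4 were not detected. The list summed to 92.0, 119 and 55.1 TPM in WT replicates 1, 2 and 3, to 105, 149 and 71.5 TPM in CdxKO and to 81.2, 98.1 and 49.95 TPM in T/BraKO. Replicate 2 was highest and replicate 3 lowest in each genotype, and whether these transcripts came from feeders was not tested.

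**Figure D2:**
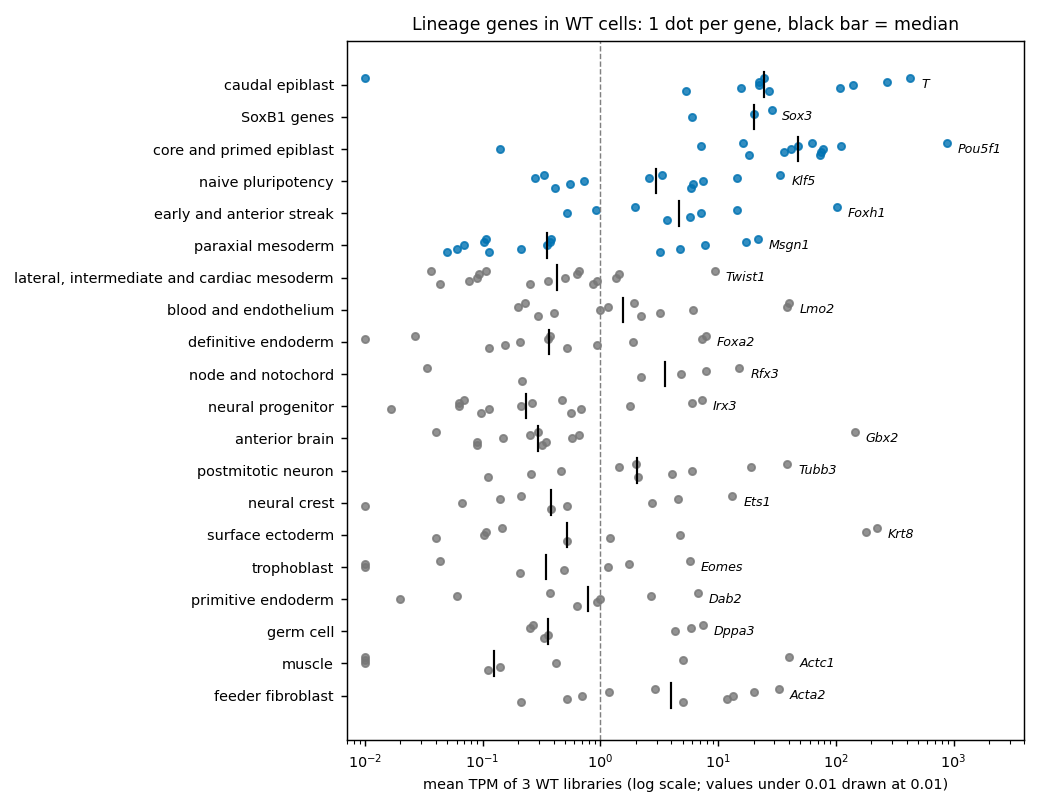
Mean TPM over 3 WT libraries (log axis) of every gene in 20 lineage lists, with 1 dot per gene, a black bar at the list's median, the top gene named and a dashed line at 1 TPM. Blue lists are the 6 of the epiblast, streak and paraxial mesoderm and grey lists the 14 of other lineages, where 44 of 130 genes were detected.

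Hox genes, which give cells their position along the trunk, were read in all 4 clusters. Detected were 10 of 39 (25.64%, against 50.27% of all genes in the table). The Hoxb cluster summed to 320, 63.2 and 153 TPM in WT replicates 1, 2 and 3. The Hoxa cluster summed to 60.2, 32.8 and 52.0 TPM, Hoxc to 16.4, 1.71 and 6.83 TPM and Hoxd to 3.89, 2.12 and 1.44 TPM. Hoxb1, an anterior gene that is turned on early, was comparatively even at 73.5, 35 and 41.1 TPM. Hoxb9, a trunk gene, was read at 108, 5.49 and 46 TPM and Hoxb8 at 38.5, 3.72 and 17.9 TPM, so that Hoxb9 was above Hoxb1 in replicates 1 and 3 and far below it in replicate 2. Hoxb2 (53.1, 10.5 and 27.6 TPM), Hoxb7 (17.2, 3.49 and 8.35 TPM) and Hoxb6 (12.4, 1.04 and 5.19 TPM) had the same order of libraries. Hoxc8 (4.76, 0.18 and 1.69 TPM) had the widest spread of any Hox gene with a mean of at least 1 TPM, 26.4 times. The last genes of the clusters, Hoxa13, Hoxb13, Hoxc13 and Hoxd13, were not detected.

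Replicate 2 held the lowest level of 16 of the 17 Hox genes with a mean of at least 1 TPM, Hoxd1 being the exception. Over all genes with such a mean, 36.9% were lowest in replicate 2. Of the same 17 genes 15 varied over 2-fold between libraries and 13 over 4-fold. Of all 12930 genes with such a mean, 8.02% varied over 2-fold and 179 genes over 4-fold. All 10 FGF feedback genes were also lowest in replicate 2, and the feeder fibroblast list, described above, was highest there. The part of either in the Hox levels was not tested.

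**Figure D3:**
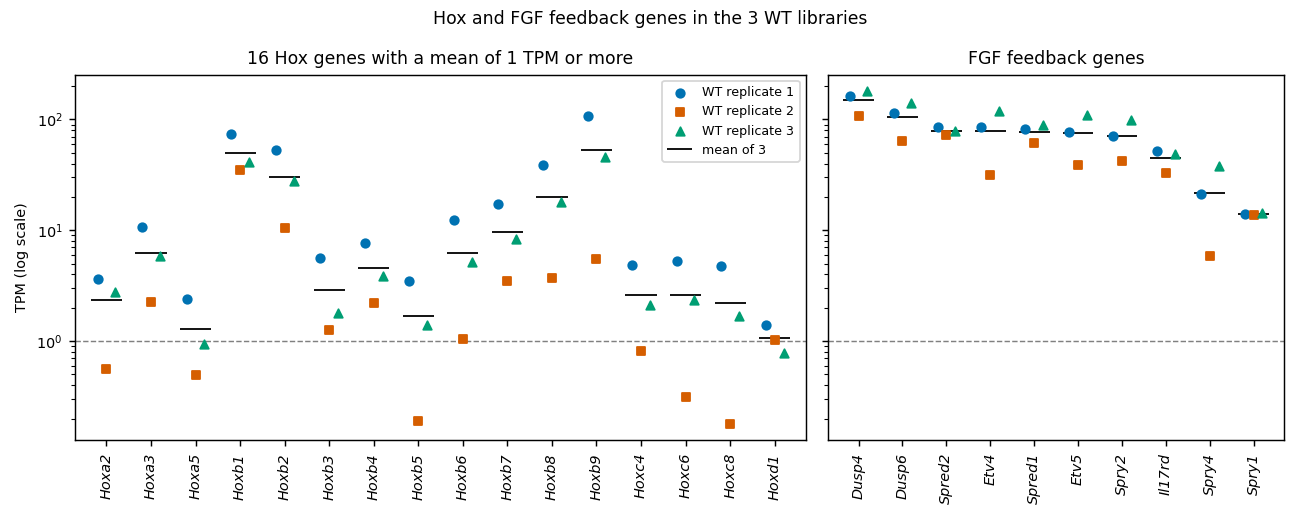
TPM (log axis) of 16 Hox genes with a mean of at least 1 TPM and of the 10 FGF feedback genes in the 3 WT libraries, with 1 symbol for each library and a black bar at the mean. Replicate 2 (square) is lowest for 15 of these 16 Hox genes and for all 10 FGF feedback genes.

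Among 108 ligands 61 were detected (56.48%), and among 91 receptors 72 (79.12%), against 50.27% of all genes in the table. WNT ligands bind Frizzled receptors with LRP5 or LRP6, and R-spondins heighten the response. Wnt8a was the most abundant ligand of all, at 243, 223 and 208 TPM, and made up 56.0 ± 0.77% of the summed TPM of the WNT list, with a ratio to Wnt3a of 12.3 ± 1.49. Rspo3 was read at 54.8, 27.1 and 28.3 TPM, and Wnt6, Wnt5b, Wnt3 and Wnt5a had means of 30.6, 26.4, 21.8 and 17.5 TPM. Wnt3 and Wnt3a had overlapping ranges. Wnt10b (0.73, 2.85 and 0.27 TPM) varied most, and Wnt1 and Wnt8b, ligands of the neural tube, were not detected. Since LGK974 acts on the protein's secretion, these levels are of transcripts alone.

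WNT receptors were broadly present, with 16 of 19 detected. Ptk7, a co-receptor of planar polarity, was highest at 439, 501 and 319.7 TPM, and Fzd10 was the leading Frizzled at 169.9, 105 and 119 TPM, 2.82 ± 0.453 times Fzd2. Ryk, Ror2, Lrp5 and Lrp6 had means of 74.1, 60.4, 48.2 and 35.2 TPM, and Lgr5 (2.34, 0.93 and 1.78 TPM) was low. Downstream, Ctnnb1, the beta-catenin gene, was read at 585, 512 and 528 TPM. The factors that act with it were unequal, with Tcf7 at 131, 146 and 136 TPM and Lef1 at 124, 89.7 and 146 TPM, whose ranges overlapped, above Tcf7l1 (23.2 ± 2.85 TPM) and Tcf7l2 (6.68 ± 0.65 TPM). Axin2, a negative regulator and common WNT target, was steady at 107, 99.3 and 103 TPM, and Notum and Nkd1, also WNT antagonists, averaged 48.3 and 40.7 TPM. Wls, which carries WNT proteins to the surface, was read at 137, 105 and 64.4 TPM, Porcn, the target of LGK974, at 12.4, 18.2 and 12.1 TPM and the secreted antagonist Dkk1 at 1.02, 0.25 and 1.91 TPM.

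FGF ligands were fewer, with 10 of 22 detected and 12 not. Fgf8 was highest in each library, followed by Fgf13, an intracellular family member, at 20.02, 18.4 and 23.6 TPM. Fgf5, a marker of primed epiblast, was read at 6.9, 4.44 and 23.6 TPM, and replicate 3 alone was high. Fgf17 and Fgf11 averaged 10.4 and 5.22 TPM, and Fgf15, Fgf14, Fgf4, Fgf18 and Fgf3 between 2.15 and 3.82 TPM. Fgf2, whose protein was in the medium, was not detected at 0.38, 0 and 0.20 TPM. Fgfr1 dominated the receptors at 114, 109 and 109.8 TPM, which was 83.7 ± 1.04% of the list's summed TPM and 19.1 ± 2.43 times Fgfr2. Fgfr3 averaged 1.46 TPM, and Fgfr4 and the Klotho co-receptors Kl and Klb were not detected.

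FGF feedback genes were all detected, at uneven levels. Dusp4 and Dusp6, phosphatases that limit ERK, were read at 163, 107 and 180.0 TPM and 115, 63.8 and 139 TPM. Spry2 and Spry4, which restrain receptor signalling, were read at 70.9, 42.6 and 98.4 TPM and 21.2, 5.82 and 37.7 TPM. Spred2 and Spred1 averaged 79 and 77.2 TPM, Il17rd 44.5 TPM and Spry1 14 TPM. The list summed to 766, 469.7 and 913 TPM in WT replicates 1, 2 and 3, and in CdxKO and T/BraKO replicate 2 was lowest as well.

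Of the Nodal and activin ligands, Nodal was read at 12.1, 15.7 and 31.4 TPM, highest in replicate 3, and its inhibitors Lefty1 and Lefty2 averaged 12.1 and 6.76 TPM. The TGF-beta ligand Tgfb1, also listed here, was highest of the list at 32.7, 18.5 and 34 TPM, and Gdf3 (1.07, 4.53 and 4.31 TPM) and Gdf1 (0.54, 1.88 and 2.87 TPM) varied over 4-fold. The activin subunit genes Inhba and Inhbb averaged under 1 TPM. Most receptors were steadier: Acvr2b, the TGF-beta receptor Tgfbr1 and Acvr1b averaged 44.6, 42.3 and 22.7 TPM. The Nodal co-receptor Tdgf1 was the exception at 8.32, 9.28 and 21.9 TPM, high in replicate 3. BMP ligands were low, led by Bmp7, which hardly varied at 13.5, 13.7 and 14.1 TPM, with Bmp4 and Bmp2 at means of 6.4 and 4.39 TPM and 7 of 14 not detected. Bmpr1a was read at 78.2, 74.2 and 72.7 TPM, 4.70 ± 0.0933 times Acvr1. Fst, a secreted binder of activin, had 430.5, 489 and 533 TPM and led its list, where Id3 (108 ± 24.4 TPM) and Id1 (51.1 ± 13.6 TPM), targets of BMP signalling, followed. Cer1, an antagonist of Nodal and BMP, was read at 1.93, 0.25 and 2.71 TPM, the most uneven of that list.

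Notch ligands were led by Dll3 at 45.9, 27.3 and 38 TPM, with Jag2, Dll1 and Jag1 at means of 20.4, 16.2 and 10.7 TPM and Dll4 not detected. Notch3, Notch1 and Notch2 averaged 34.2, 27.8 and 23.3 TPM, and the target Hes1 was steady at 34.6, 36.7 and 34.5 TPM. No Hedgehog ligand was detected, Shh having 0.03, 0 and 0.07 TPM, while the transducer Smo was read at 88, 75.3 and 82.6 TPM and Ptch1, receptor and target, at 18.9, 21.8 and 15.8 TPM. Gli3, Gli2 and Gli1, the factors of that pathway, averaged 22.8, 12.7 and 4.22 TPM.

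Retinoic acid genes showed the binding protein Crabp2 at 147, 102 and 118 TPM and the receptor Rarg at 70.7, 64 and 63.5 TPM, 2.59 ± 0.124 times Rara. Rarb, itself a retinoic acid target, was not detected. Aldh1a2, which makes retinoic acid, was read at 7.04, 4.08 and 2.41 TPM and Cyp26a1, which degrades it in the tail end of the embryo, at 3.36, 0.28 and 2.01 TPM, with replicate 2 lowest by far. Ephrins, membrane-bound ligands of cell sorting, were detected for 8 of 8 genes, led by Efnb1 (55.5 ± 5.62 TPM), and Epha1 led the Eph receptors at 109, 95.1 and 169 TPM, above Epha2 (73.6, 45 and 121 TPM) in each library with overlapping ranges. Apela, a ligand of the apelin receptor, was read at 75.1, 112 and 147 TPM and Apln, the other ligand, at 58.5, 61.1 and 79.8 TPM, with their receptor Aplnr at 33.4, 24 and 17.9 TPM. Igf2, Vegfb and Vegfa averaged 67.2, 50.3 and 26.6 TPM, and Igf2r, Il6st, Erbb2 and Igf1r 58.3, 22.7, 22.2 and 20.1 TPM.

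**Figure D4:**
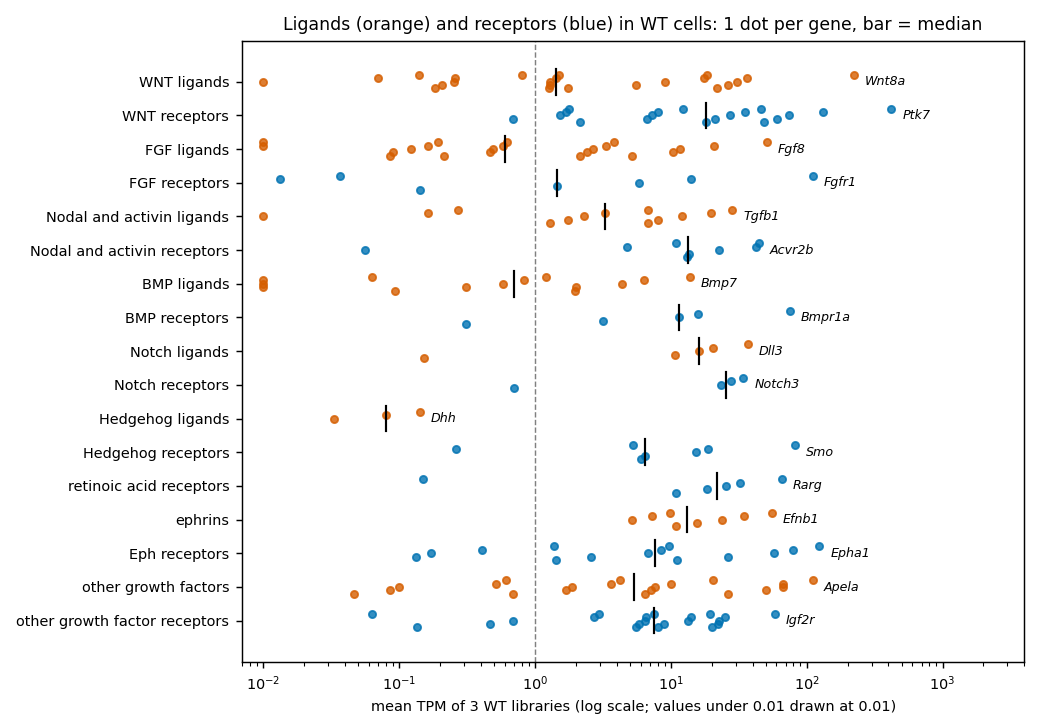
Mean TPM over 3 WT libraries (log axis) of every ligand (orange) and receptor (blue) listed, with 1 dot per gene, a black bar at the list's median, the top gene named and a dashed line at 1 TPM. Hedgehog ligands are all under 1 TPM, and Wnt8a, Ptk7, Fgfr1 and Epha1 lie above 100 TPM.

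Over all lists, 105 of the 295 genes with a mean of at least 1 TPM varied over 2-fold between WT libraries (35.6%), against 8.02% of 12930 such genes in the table. Of these 295 genes, 26 varied over 4-fold, against 179 of the 12930. Without replicate 2 the count over 2-fold was 40, without replicate 3 64 and without replicate 1 73. Genes that varied by under 1.1 times included Foxh1, Bmp7, Fgfr1, Ryk and Acvr1. Among 262 neighbouring pairs in the order of mean levels within a list, 101 had ranges that did not overlap.

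The WT levels were last set beside the mutants, which share the 3 WT libraries. The targeted genes were lower in the mutants, where transcripts of T were read at 61, 77.1 and 98.5 TPM in T/BraKO and Cdx2 at 54.3, 24 and 25.1, Cdx1 at 12.5, 13.4 and 7.87 and Cdx4 at 0.06, 0.08 and 0.08 TPM in CdxKO. Of 449 listed genes tested in CdxKO against WT, 29 were called by the Wald test of DESeq2 at an adjusted p of at most 0.05, 4 higher and 25 lower, where 0.693% of all 16737 genes tested were called. With the replicate number as a block, 70 of 353 were called, 30 higher and 40 lower, and 5.31% of all genes tested. All 29 were among these 70. In T/BraKO against WT 17 of 464 listed genes were called, 4 higher and 13 lower, where 1.08% of all 18900 genes tested were called, and with the block 86 of 301, 42 higher and 44 lower, and 9.68% of all genes. All 17 were among these 86. Values of single genes below come from the fit without the block. The edgeR quasi-likelihood test called 2 and 6 listed genes, with 66 and 54 at an unadjusted p under 0.05. The 2 called by edgeR in CdxKO were Cdx4 and Hand1. The 6 in T/BraKO were T, Sp5, Msgn1, Isl1, Fgf8 and Tgfbr3. No other change of a single gene given below was called by edgeR. This includes Aplnr in T/BraKO and Hoxa5, Hoxb3, Fzd10 and Kitl in CdxKO. DESeq2 adjusted p-values near its threshold included 0.0491 for Postn and 0.0464 for Pdgfrb in T/BraKO, and 0.0476 for Hoxd4 in CdxKO. Without WT replicate 1 DESeq2 called 18 and 11. On simulated counts DESeq2 made more false calls than its threshold allows. The simulated libraries were drawn independently, without an effect shared by libraries of the same replicate number. How many false calls the adjusted p-values given here hold is therefore not known.

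In CdxKO 14 of the 25 lower genes were Hox genes and 3 were the Cdx genes themselves. Hoxb5, Hoxb6, Hoxc5, Hoxc6, Hoxc8, Hoxd4 and Cdx4 were at 3 counts or fewer in every CdxKO library, so no fold change is given for them. Among the Hox genes above that floor was Hoxa5, a trunk gene (log2 fold change -2.98, SE 0.80, DESeq2 adjusted p = 0.0322). Another was Hoxb3 (log2 fold change -2.56, SE 0.68, DESeq2 adjusted p = 0.0267). Hoxb8 (-7.45, SE 1.04), Hoxb9 (-6.47, SE 1.09) and Hoxb7 (-4.81, SE 0.69) fell further on the log2 scale. So did Hoxa3 (-4.12, SE 0.85) and Hoxc4 (-4.10, SE 0.82), while Hoxb4 (-2.13, SE 0.545) fell less. Counts of Hoxb7, Hoxb8 and Hoxc4 were at most 8 in any CdxKO library, and edgeR called no Hox gene in CdxKO. Fzd10, the leading WT Frizzled, fell from 169.9, 105 and 119 to 66.2, 39.3 and 39.1 TPM (log2 fold change -1.44, SE 0.27, DESeq2 adjusted p = 4.06e-05). Kitl, the ligand of the receptor Kit, fell from 13.6, 7.48 and 9.09 to 4.14, 2.09 and 3.66 TPM (log2 fold change -1.60, SE 0.36, DESeq2 adjusted p = 0.00292), and Kit itself changed by -0.52 on the log2 scale. Msx1, a BMP target, changed by -1.91, the receptor Igf2r by -0.93, Wnt8a, the most abundant WT ligand, by -0.77 and Rarg by -0.52, each lower. Hand1 (2.44) and Wnt7b (1.83), which the WT cells held at means of 1.36 and 1.5 TPM, were higher, as were Bmp8b (0.94) and Klf4 (0.62).

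In T/BraKO the called listed gene with the largest log2 fold change was Msgn1 (-5.58, SE 0.72), with at most 5 counts in any T/BraKO library. Tbx6 changed by -3.41 (SE 0.55) and the marker Fgf8 by -1.56 (SE 0.26), both lower. Isl1 fell from 1.6, 1.28 and 1.43 to 0.09, 0.10 and 0.27 TPM (log2 fold change -3.15, SE 0.54, DESeq2 adjusted p = 2.45e-06). Aplnr fell from 33.4, 24 and 17.9 to 5.05, 3.3 and 2.28 TPM (log2 fold change -2.79, SE 0.57, DESeq2 adjusted p = 0.000261), and its ligand Apela was higher, by 1.08 on the log2 scale. Nog, a BMP antagonist, changed by -1.61, the Hedgehog co-receptor Cdon by -0.75 and Pdgfrb, a receptor of mesenchymal cells, by -0.91, each lower, and Tgfbr3 by 0.89, higher. Postn, a matrix protein of the feeder fibroblast list, was lower (-2.58) from a mean WT level of 0.70 TPM. Wnt3a, a gene of both comparisons, was read at 22.4, 18.3 and 15.1 TPM in WT, at 8.1, 3.92 and 8.65 TPM in CdxKO and at 7.59, 7.05 and 9.35 TPM in T/BraKO, with log2 fold changes against WT of -1.42 and -1.18. Of the 14 other lineage lists 48 of 130 genes were detected in CdxKO and 43 in T/BraKO, against 44 in WT, counts that were not tested against each other.

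**Figure D5:**
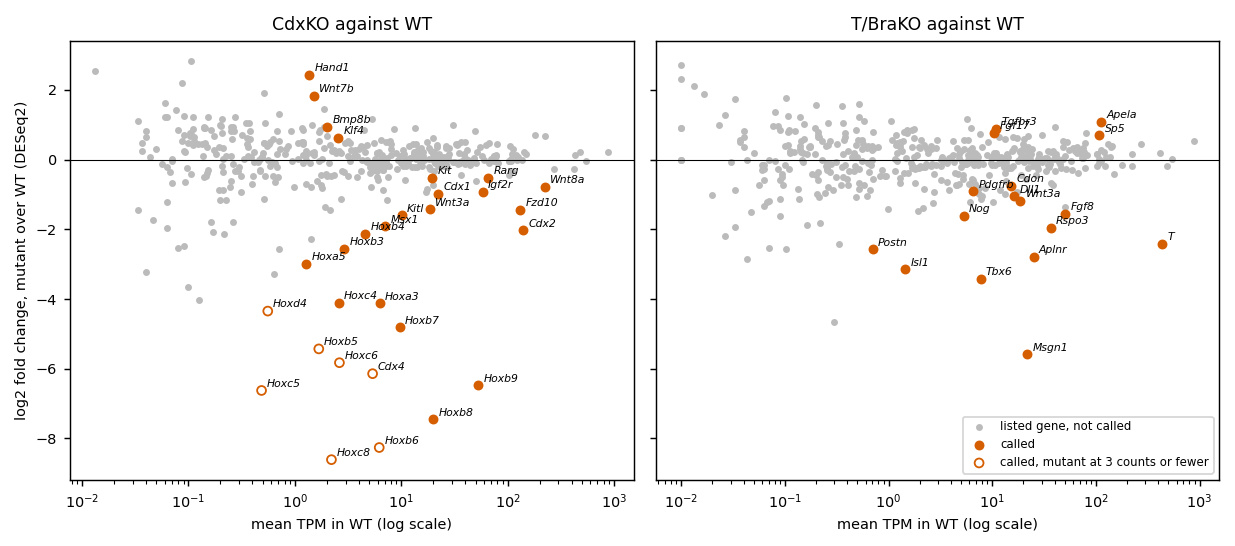
Log2 fold change (mutant over WT, DESeq2) of every listed gene tested against its mean WT level in TPM (log axis), for CdxKO (left) and T/BraKO (right), with called genes in orange and named. Open circles are called genes at 3 counts or fewer in the mutant, whose fitted fold change is not a measured size. Genes at that floor that were not called are drawn as grey dots, and the same limit holds for them. Of the 29 genes called in CdxKO 25 lie below 0.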

How the data were processed

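Poly(A) RNA was sequenced by the authors as strand-specific single-end reads, trimmed with cutadapt 1.16 and quantified with STAR 2.5.2a and RSEM 1.3.0 on RefSeq genes of mouse build mm10. The deposited table holds expected counts, which RSEM estimates and which were rounded here for testing, and TPM, which the authors scaled for transcript length and library total. Rn45s was kept in both. Columns were matched to libraries by name, with 0 left unmatched. Libraries are labelled as biological replicates of 1 line each, and p-values measure the spread between them.

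Levels were read from TPM with Python 3.11.15 and pandas 2.3.3, and coordinates from GRCm38 annotation, the assembly of mm10. Genes were named as the 5 markers, the leading members of each list, listed genes with a mean of at least 1 TPM whose libraries varied over 4-fold, and genes called in a mutant. Not all called genes are described, and those described are not ranked by size of change. Other genes named, those not detected included, were chosen after their values were seen. Results for some single genes are not reported here. Spry3 was listed but had no row, and genes in more than 1 list were counted once in totals. Members and lists were chosen with earlier results of these data known.

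Mutants were compared with WT on the counts by the Wald test of DESeq2 1.42.0 in R 4.3.3 over all 9 libraries, with genotype as the only term. The study's methods name DESeq2 and an adjusted p of at most 0.05, and the design was chosen here. edgeR 4.0.16, TMM factors, a filter of 10 counts in 3 libraries, an adjusted p of 0.01, a fit to the 6 libraries compared, the replicate block and leaving out each library were alternatives. Same-numbered libraries deviated together over 12316 genes, with a mean correlation of 0.703 (range 0.532 to 0.814, 9 pairs), so numbers were taken to pair the samples. Pairs with different numbers had -0.34 (18 pairs). Deviations were taken from each genotype's mean of 3 libraries, which largely sets the second value once the first is known. The replicate block uses this pairing, and the fold changes and adjusted p-values of single genes come from the fit without it. On simulated counts the scripts recovered the changed genes, with more false calls by DESeq2 than its threshold allows. The simulated libraries were drawn independently, without this pairing, so the rate of false calls in the data is not known from them.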

Additional observations from a re-analysis of the deposited data

How the results depend on the processing

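At a threshold of 5 TPM 173 listed genes were detected in place of 267, and 16 genes of other lineages in place of 44. Leaving out 1 library gave 270 to 283 and 44 to 47 genes, and 170 to 179 not detected in place of 169. The 105 genes that varied over 2-fold became 50 at 3-fold, 39 at a mean of 10 TPM or more and 190 with no filter, and 40 to 73 with 1 WT library left out, the fewest without replicate 2. For CdxKO against WT the 29 called genes became 70 with the replicate block, 2 by edgeR and 67 by edgeR with the block, which was added after seeing the data, and 18 to 27 with 1 library left out, the fewest without WT replicate 1. For T/BraKO against WT the 17 became 86 with the replicate block, 6 by edgeR, 90 by edgeR with the block and 11 to 21 with 1 library left out, again fewest without WT replicate 1. The cause of these shifts was not tested, beyond the stricter or looser cut that defines some of them. Depth limits genes under 1 TPM, and 3 libraries limit every interval.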
